A study of Mus musculus with 2 samples.

Results

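A set of 38 genes of DNA replication and cell division was followed in white fat of obese mice given entacapone or vehicle. The genes were taken by symbol: the proteins that license and copy DNA, the enzymes that supply deoxynucleotides, the cyclins and kinases of S phase and mitosis, and the machinery of the spindle and chromosomes. All 38 were found by Ensembl identifier among the 37315 genes listed, and 37 reached a mean of 1 CPM (reads scaled to library size) over both libraries. The exception was Bub1. The tissue came from male C57BL/6 mice, 23 weeks old, made obese on a high-fat diet, and the series title names the inguinal depot. Each of the vehicle and entacapone groups held 1 library, so no replicate error exists, no test was made and every difference is between these 2 libraries. The sources used here do not state the dose, the duration or how many mice stand behind a library. Entacapone inhibits catechol-O-methyltransferase and is given in Parkinson disease, and inhibition of FTO, which removes methyl groups from RNA, is also known for it.

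A dividing cell loads the MCM helicase onto its origins in G1 with Cdc6 and Cdt1, fires it with Cdc45 and GINS in S phase, and later condenses, aligns and separates its chromosomes under cyclin B with Cdk1. Replication genes are typically switched on at the G1/S boundary through E2F factors, and mitosis genes later, in G2, through MuvB complexes with B-Myb and FoxM1. Mature adipocytes rarely divide. In obese fat, division is known from macrophages and from adipocyte progenitors, so transcripts of this programme are scarce in whole tissue.

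Depth was 13620056 counted reads in the vehicle library and 12979673 in the other. The members lay between 1.52 and 35.2 CPM in the vehicle library, and 5 to 486 reads stand behind each value. Adipocyte markers, among them Adipoq, Plin1 and Fabp4, were abundant in both libraries, where Fabp4 alone had 15029 and 17900 CPM. The libraries also differed in RNA of other tissues. In the vehicle library 13 of 13 measured hepatocyte markers were at least 2-fold higher and beyond counting error, against 3.50% of all genes that reached a mean of 1 CPM. In the entacapone library 12 of 13 measured skeletal muscle markers and 9 of 12 skin and mammary epithelium markers were higher beyond counting error. Among all genes that reached a mean of 1 CPM the share was 20.2%. With library sizes that leave out these lists, erythroid and mitochondrially encoded genes, 19 members were lower beyond counting error (18 otherwise, as defined below). Their part in the results was not tested in another way.

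Transcripts of mitosis were lower in the entacapone library, and those of replication differed by less. The 19 mitosis members summed to 99.0 CPM (1367 reads) in the vehicle library and 56.7 CPM (726 reads) in the entacapone library. That is 1.74-fold lower, with an entacapone over vehicle ratio of 0.573 and an exact 95% interval of 0.523 to 0.628. The 15 replication members summed to 171.1 against 158.1 CPM (2364 and 2024 reads), a ratio of 0.924 (0.870 to 0.981). Much of this sum is Pcna (486 and 427 reads), Mcm7 (315 and 370) and Rrm1 (246 and 219). Without Pcna the ratio was 0.918 (0.858 to 0.982). For each replication read there were 0.578 mitosis reads in the vehicle library and 0.359 in the entacapone library. This contrast does not depend on library scaling, and its ratio was 0.620 with an exact interval of 0.556 to 0.692. Without the most abundant member of each group it was 0.609 (0.539 to 0.687). Intervals here and below cover the counting of reads alone. In bulk tissue, fewer dividing cells and less RNA per dividing cell cannot be told apart.

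A gene is called lower or higher beyond counting error here where its 95% interval excludes a ratio of 1. Of the 38 members, 18 were lower and 2 higher by that rule, and of the 37 that reached a mean of 1 CPM, 17 and 2. Among the 13361 genes that reached a mean of 1 CPM, 21.1% were lower and 20.2% higher by the same rule. Among the 7869 genes in the level range of the members (1.35 to 34.3 CPM), the shares were 19.3% lower and 12.8% higher. The lower calls comprised 13 of 19 mitosis members, 4 of 15 replication members and 1 of the 4 S phase cyclin and Cdk2 genes. At least 2-fold lower and beyond counting error were 7 members (6 without Bub1, which missed the 1 CPM limit), against 3.50% of all tested genes and 4.68% of the level range. These were Ccnb2, Cdk1, Bub1, Cenpa, Cenpe and Aurkb of mitosis, and Tk1 of nucleotide supply. No member was at least 2-fold higher, against 1.66% of all tested genes and 2.20% of the level range. The median log2 ratio, computed with 0.5 CPM added, was -0.72 for the 18 measured mitosis members and -0.21 for the 15 replication members. It was 0.00 for all tested genes and -0.02 for the level range, where the quartiles were -0.27 and 0.18.

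**Figure D1:**
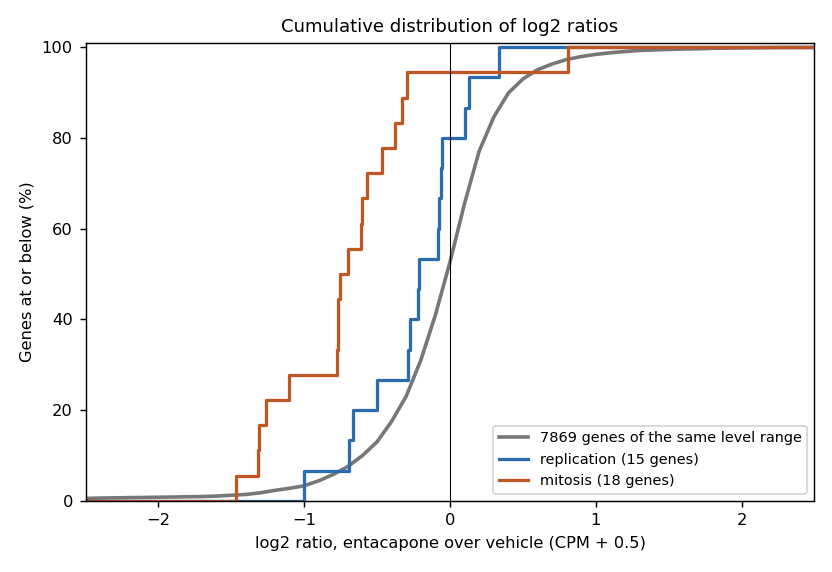
Cumulative share of genes (y axis, percent) by log2 ratio of entacapone over vehicle with 0.5 CPM added (x axis), for 18 mitosis members, 15 replication members and 7869 genes of the same level range. The mitosis curve lies to the left with a median of -0.72 and a single gene (Aurka) to the right of 0, while the replication curve has a median of -0.21.

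The members' promoters were compared because the programme is known to use 2 DNA elements. These are the CHR element of genes switched on in G2 and mitosis, and the E2F site of genes switched on at G1/S. RefSeq start sites (GRCm38.p6) with 250 bases before and 50 after were matched for 31 of the 38 members, and not for Mcm4, Gins2, Ccne2, Ccna2, Tpx2, Aurkb and Kif20a. Both strands were searched for the CHR letters TTTGAA or TTCGAA, the E2F letters TTTCCCGC, TTTCGCGC, TTTGCCGC or TTTGGCGC, and the CCAAT box. Overlapping matches of 1 motif count as 1. Below are 3 promoters of mitosis genes with large differences and 2 of MCM subunits with small or opposite ones, each from 180 bases before to 30 after the start. Capitals mark CHR and E2F matches.
Ccnb2, chr9:70421525-70421734, minus strand: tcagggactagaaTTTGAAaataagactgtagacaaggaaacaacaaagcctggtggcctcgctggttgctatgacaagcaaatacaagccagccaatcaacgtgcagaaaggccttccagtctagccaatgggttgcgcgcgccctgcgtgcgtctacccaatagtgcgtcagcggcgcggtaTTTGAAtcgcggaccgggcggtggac
Cdk1, chr10:69352883-69353092, minus strand: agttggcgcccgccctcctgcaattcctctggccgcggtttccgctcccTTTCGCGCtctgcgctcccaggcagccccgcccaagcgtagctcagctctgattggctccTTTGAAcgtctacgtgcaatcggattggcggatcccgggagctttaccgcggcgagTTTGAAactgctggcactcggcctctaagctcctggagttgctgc
Cenpa, chr5:30666706-30666915, plus strand: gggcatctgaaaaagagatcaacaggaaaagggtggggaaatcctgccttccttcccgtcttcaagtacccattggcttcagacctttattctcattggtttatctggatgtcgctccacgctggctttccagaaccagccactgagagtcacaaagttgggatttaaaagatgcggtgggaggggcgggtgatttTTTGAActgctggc
Mcm6, chr1:128359676-128359885, minus strand: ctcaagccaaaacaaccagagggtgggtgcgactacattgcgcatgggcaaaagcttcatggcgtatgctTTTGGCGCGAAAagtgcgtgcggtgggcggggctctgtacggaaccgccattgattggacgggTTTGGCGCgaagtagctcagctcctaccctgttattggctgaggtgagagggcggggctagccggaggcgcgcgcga
Mcm7, chr5:138171854-138172063, minus strand: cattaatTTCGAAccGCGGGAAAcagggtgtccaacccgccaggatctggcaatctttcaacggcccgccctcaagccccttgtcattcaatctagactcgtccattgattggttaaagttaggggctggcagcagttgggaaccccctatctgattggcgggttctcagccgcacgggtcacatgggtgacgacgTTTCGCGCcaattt
Ccnb2 holds CHR matches that begin at -167 and 5 relative to the start site (the first transcribed base is 1), and Cenpa holds its match at 17. Cdk1 holds CHR matches at -71 and -15 and an E2F match at -131. Mcm6 holds E2F matches at -110 and -47 and no CHR match. Mcm7 holds E2F matches at -165 and 17, the latter sharing its last base with a CCAAT box, and a CHR match at -173.

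The share of promoters with a match differed between the groups. A CHR match was present for 13 of 16 mitosis members with a promoter and for 3 of 13 replication members, against 19.2% of all 32851 promoters in the table. An E2F match was present for 1 of 16 mitosis members (Cdk1) and 6 of 13 replication members (Cdc6, Cdt1, Mcm3, Mcm5, Mcm6 and Mcm7), against 2.26% of all promoters. A CCAAT box was present for 15 of 16 and 9 of 13, against 37.4%. The 13 mitosis members with a CHR match had a median log2 ratio of -0.81 without added CPM and with Bub1 included, as had the 3 without a match (Cenpe, Birc5 and Ccnb1). With 0.5 CPM added and without Bub1 these medians were -0.69 and -0.70. Aurka, which was higher, holds a CHR match at 33. The 6 replication members with an E2F match had a median log2 ratio of -0.28 and the 7 without one -0.09, without added CPM. Of the 4 replication members that were lower beyond counting error, Mcm2, Rrm2 and Tk1 hold no E2F match and Mcm5 does. A match is a string of letters, not a measured binding site. Exact letters also miss sites that differ from them, so a gene without a match may still hold a site. Whether these elements bear on the ratios was not tested.

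**Figure D2:**
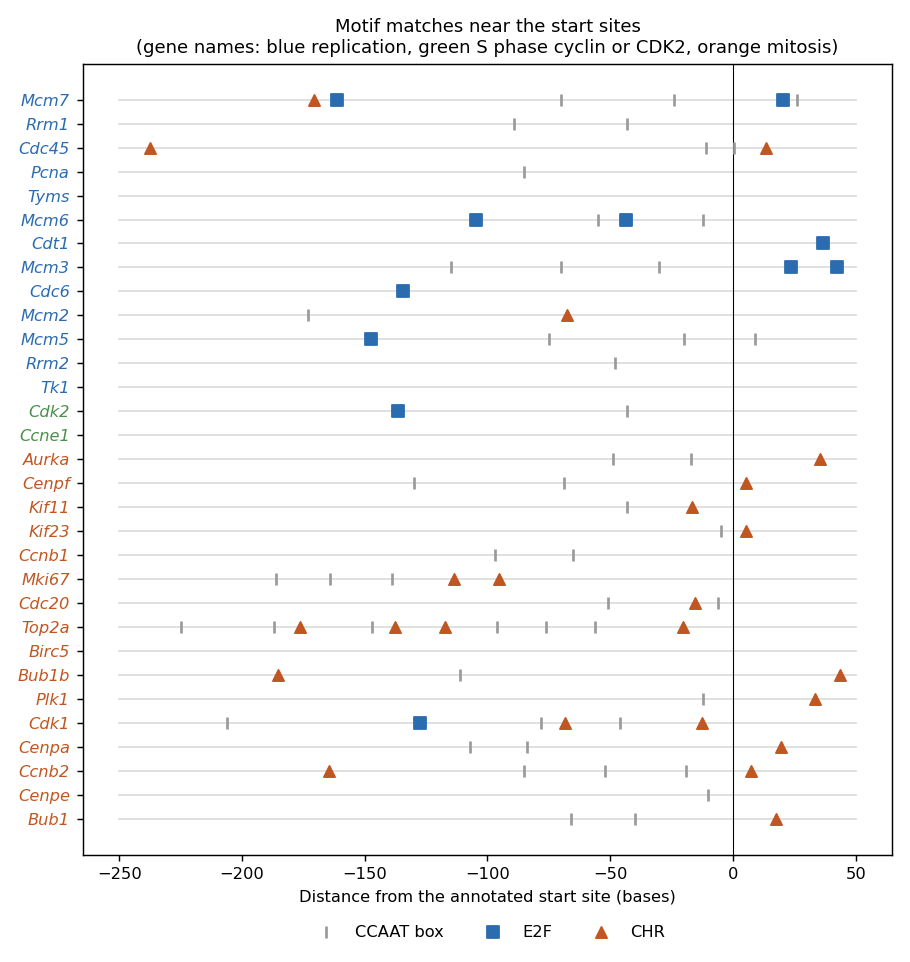
Matches of the CHR (triangles), E2F (squares) and CCAAT (ticks) letters by distance in bases from the annotated start site (x axis), for 31 genes (rows; for Mcm7 the first of its annotated start sites). Within each group genes are ordered from the highest to the lowest ratio. Squares are mostly in the replication rows and triangles in the mitosis rows, and the mitosis genes with and without a triangle have the same median log2 ratio of -0.81 without added CPM.

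Licensing and fork genes were mostly at similar levels, with 2 of 11 lower and 1 higher beyond counting error. The summed level was 134.1 against 128.1 CPM, a log2 ratio of -0.07 (-0.16 to 0.03). Cdc6 and Cdt1, which load the helicase, stood at 1.52 against 1.17 CPM and 4.63 against 3.91 CPM (vehicle first, here and in every pair below). With 21 and 15 reads, the interval of Cdc6 runs from -1.44 to 0.65 on the log2 scale, which still holds a 2-fold lower level. Cdc45, which joins the helicase when it fires, was at 9.34 against 8.91 CPM. Pcna, the sliding clamp of the polymerases, was the most abundant member at 35.2 against 33.4 CPM. Its interval, -0.27 to 0.11, leaves room for a small difference only.

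The MCM subunits, which form a ring with 1 copy of each, did not share a direction. Mcm5 was at 9.48 against 5.78 CPM (131 and 74 reads) and Mcm2 at 9.05 against 6.25 CPM (125 and 80 reads). Both were lower beyond counting error, with log2 ratios of -0.71 (-1.15 to -0.29) and -0.53 (-0.96 to -0.12). Mcm3 was at 10.7 against 8.67 CPM, Mcm6 at 13.5 against 11.6 CPM and Mcm4 at 11.7 against 12.6 CPM, all within counting error. Mcm7 (chromosome 5, 138164583 to 138172422) went the other way. It stood at 22.8 CPM (315 reads) and 28.9 CPM (370 reads), a log2 ratio of 0.34 (0.12 to 0.56). Relative to the reads of the other 5 subunits, Mcm7 was 1.54 times higher in the entacapone library (1.27 to 1.86). Mcm5 was 1.65 times (1.21 to 2.25) and Mcm2 1.43 times (1.06 to 1.95) lower on that measure. The exons of Mcm7 share 321 bases with Ap4m1 and 64 with Cops6 on the other strand, and the kit does not mark strand. These neighbours had log2 ratios of 0.18 (-0.10 to 0.46) and 0.10 (0.00 to 0.21), and their part in the Mcm7 value was not tested.

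Gins2, a subunit of the GINS complex of the active helicase, was at 6.23 against 6.88 CPM, within counting error. Of its 4097 exonic bases, 2758 lie opposite exons of Gse1, so its reads cannot be told apart from those of Gse1 there, which had a log2 ratio of -0.58 (-0.85 to -0.31).

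Nucleotide supply genes split into pairs. Tk1, the thymidine kinase of the salvage route (chromosome 11, 117815526 to 117826092), stood at 6.59 CPM (91 reads) against 3.05 CPM (39 reads). It was 2.16-fold lower, with a log2 ratio of -1.11 (-1.69 to -0.56). Its exons share 83 bases with Afmid on the other strand, which had 31 and 10 reads. Tyms, which makes thymidylate de novo, was at 7.24 against 6.80 CPM (100 and 87 reads), within counting error. Tk1 reads per Tyms read were 2.03 times lower in the entacapone library (1.23 to 3.36). Rrm2, the small subunit of ribonucleotide reductase that is made in S phase, was at 5.36 against 3.13 CPM (74 and 40 reads), a log2 ratio of -0.78 (-1.37 to -0.20). Its partner Rrm1, the large and longer-lived subunit, was at 17.8 against 17.1 CPM, and Rrm2 per Rrm1 was 1.65 times lower (1.06 to 2.59).

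Among S phase regulators, Ccna2 (cyclin A2), which serves both S phase and mitotic entry, was at 5.0 CPM (69 reads) against 2.66 CPM (34 reads). Its log2 ratio was -0.91 (-1.55 to -0.30). The E cyclins, which start S phase, were within counting error, with Ccne1 at 7.67 against 5.94 CPM and Ccne2 at 3.40 against 3.44 CPM. Their shared kinase Cdk2 was at 20.3 against 17.8 CPM, also within counting error. Ccna2 shares 510 exonic bases with Exosc9 and Ccne2 609 with Ints8 on the other strand, and both neighbours differed by less than counting error.

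**Figure D3:**
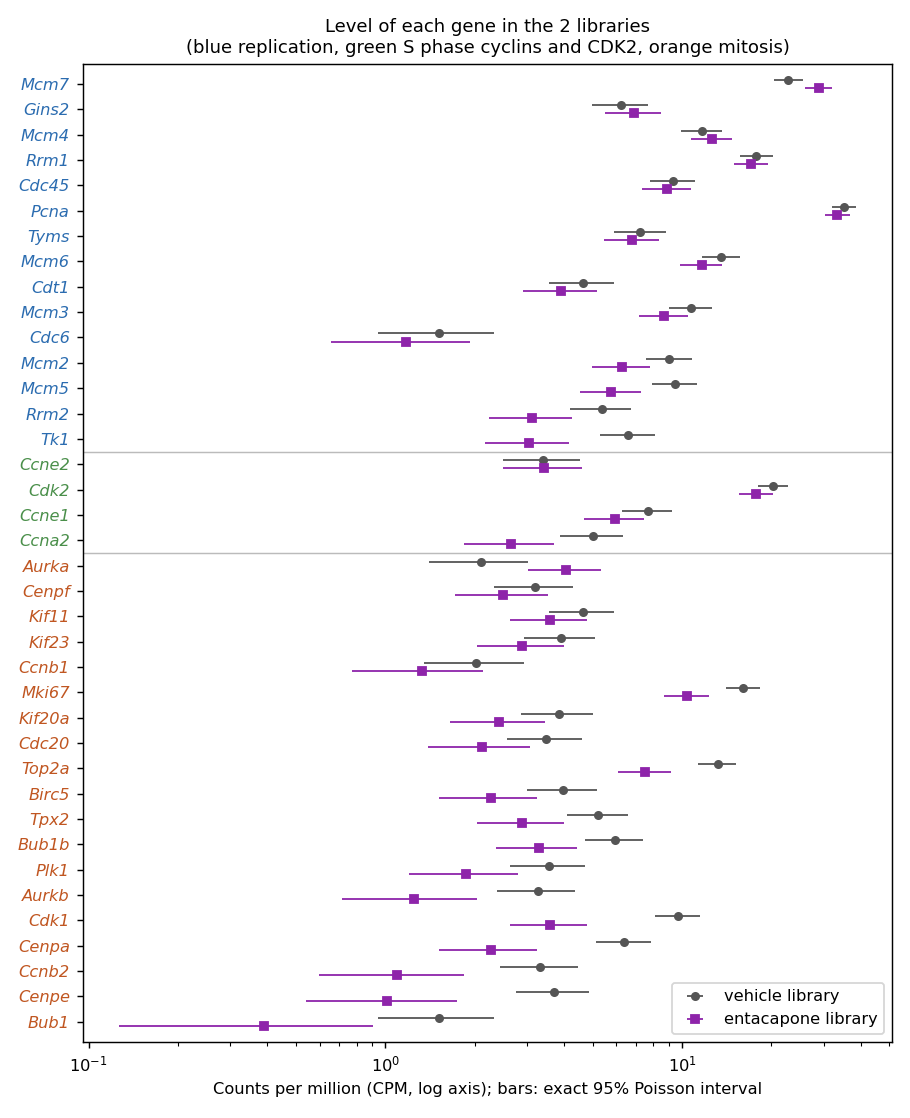
CPM on a log axis (x) for each of the 38 genes (rows) in the vehicle (grey circles) and entacapone (purple squares) library, with exact 95% Poisson intervals of the reads. The libraries overlap for most replication genes, and the entacapone squares lie to the left for all mitosis genes except Aurka.

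Of the 5 mitotic entry genes, 3 fell below the vehicle level beyond counting error and 1 rose above it. Cdk1, the mitotic kinase (chromosome 10, 69335146 to 69352938), was at 9.70 CPM (134 reads) in the vehicle library and 3.59 CPM (46 reads) in the entacapone library. It was 2.70-fold lower, with a log2 ratio of -1.43 (-1.95 to -0.94). Ccnb2, a B cyclin that activates it (chromosome 9, 70407692 to 70421547), stood at 3.33 against 1.09 CPM on 46 and 14 reads. Its log2 ratio was -1.61 (-2.58 to -0.72). A processed copy, Ccnb2-ps, had 12 and 9 reads, and how reads that fit both were counted is not stated. Ccnb1, the other B cyclin, had 28 and 17 reads (2.03 and 1.33 CPM) and was within counting error at -0.61 (-1.57 to 0.31). Plk1, a kinase that promotes entry and spindle assembly, was at 3.55 against 1.88 CPM (49 and 24 reads; -0.92, -1.69 to -0.19). Aurka, the centrosomal Aurora kinase (chromosome 2, 172356190 to 172370535), went the other way, at 2.1 CPM (29 reads) against 4.06 CPM (52 reads). It was 1.94-fold higher (log2 0.95, 0.27 to 1.66), and no exon of another annotated gene overlaps it.

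Spindle and checkpoint genes were lower in 4 of 5 beyond counting error. Tpx2, which activates Aurora A on the spindle, was at 5.21 against 2.89 CPM (72 and 37 reads). Its log2 ratio was -0.85 (-1.46 to -0.26), opposite in sign to that of its partner Aurka. Bub1b, the checkpoint protein BubR1, was at 5.94 against 3.28 CPM (82 and 42 reads; -0.86, -1.43 to -0.30). Bub1, a kinetochore kinase of the same checkpoint, had 21 and 5 reads (1.52 and 0.391 CPM). It had the lowest ratio of all members at 3.89-fold, on the fewest reads, with a log2 interval of -3.72 to -0.51. Cdc20, which activates the anaphase-promoting complex, was at 3.47 against 2.11 CPM (48 and 27 reads), and its interval ends just under 0 (-1.46 to -0.01). Kif11, the motor that separates the spindle poles, was at 4.63 against 3.59 CPM, within counting error.

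Chromosome and kinetochore genes held the most reads of the mitosis group, 587 and 303 over 5 genes, and 4 of the 5 were lower. Mki67, which encodes the proliferation marker Ki-67, a coat of mitotic chromosomes, was at 16.1 against 10.4 CPM (222 and 133 reads). It was 1.55-fold lower (log2 -0.63, -0.95 to -0.31). Top2a, the topoisomerase that untangles sister DNA, was at 13.2 against 7.50 CPM (182 and 96 reads; -0.81, -1.18 to -0.45). These 2 genes are the best measured of the group, and both differed by less than Cdk1 did. Cenpa, the histone H3 variant of centromeres (chromosome 5, 30666777 to 30674830), was at 6.37 against 2.27 CPM (88 and 29 reads). It was 2.81-fold lower, with a log2 ratio of -1.49 (-2.15 to -0.87). Cenpe, a kinetochore motor, was at 3.69 against 1.02 CPM (51 and 13 reads), which is 3.63-fold lower. Its log2 interval was -2.86 to -0.96. Cenpf, a large kinetochore and nuclear matrix protein, was within counting error at 3.19 against 2.5 CPM.

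Chromosomal passenger and cytokinesis genes were all lower in value, 2 of 4 beyond counting error. Aurkb, the kinase of the passenger complex, was at 3.26 against 1.25 CPM (45 and 16 reads). It was 2.61-fold lower (log2 -1.38, -2.30 to -0.53). Birc5, which encodes survivin, a partner of Aurora B, was at 3.98 against 2.27 CPM (55 and 29 reads; -0.81, -1.52 to -0.14). The midzone motors Kif20a (53 and 31 reads) and Kif23 (54 and 37 reads) were within counting error at -0.66 and -0.44. The interval of Kif20a ends just above 0, and 1271 of its 4338 exonic bases lie opposite exons of Cdc23.

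**Figure D4:**
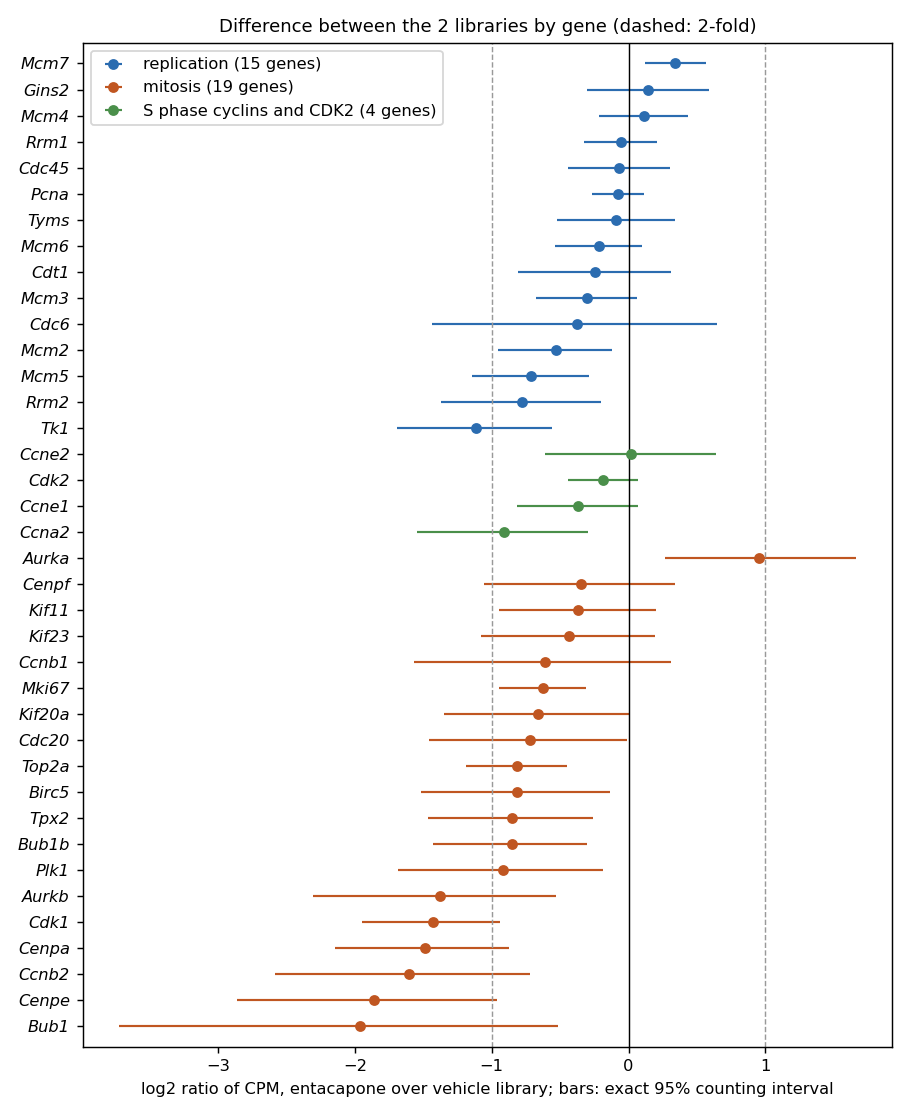
Log2 ratio of CPM, entacapone over vehicle (x axis), with exact 95% counting intervals for the 38 genes (rows, ordered by ratio within replication, S phase cyclin and mitosis groups). Dashed lines mark 2-fold. Of the 19 mitosis intervals, 13 lie wholly below 0 and that of Aurka lies wholly above, while 10 of the 15 replication intervals hold 0.

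Among gene pairs that act together or replace each other, 9 were compared as reads per read within a library, a measure free of library scaling. Their 95% intervals are not adjusted for the number of pairs. The largest change was in the Aurora kinases. There were 0.644 Aurka reads per Aurkb read in the vehicle library and 3.25 in the entacapone library, a ratio of 4.98 (2.30 to 11.2). Cdk1 per Cdk2 read went from 0.479 to 0.202, which is 2.37 times lower (1.60 to 3.54). Ccna2 per Cdk2 was 1.65 times lower (1.04 to 2.67), and Tk1 per Tyms and Rrm2 per Rrm1 were lower as given above. The pairs Ccne1 with Ccne2, Ccnb2 with Ccnb1 and Bub1 with Bub1b had intervals that hold 1. So did Gmnn, the inhibitor of Cdt1, with Cdt1, at 1.56 times lower (0.886 to 2.76).

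Scaled by exon length, replication genes had the higher median level in both libraries. It was 1.93 CPM per kilobase of merged exons for replication and 1.11 for mitosis members in the vehicle library, and 1.55 and 0.618 in the entacapone library. Pcna led at 14.7 and 13.9 CPM per kilobase, followed by Mcm7 at 5.15 and 6.53. Ccnb2 led the mitosis group in the vehicle library at 2.18 CPM per kilobase and stood at 0.714 in the entacapone library. There Aurka led with 1.61, from 0.829 in the vehicle library. Cenpf and Cdc6 were at the bottom of the vehicle library, at 0.206 and 0.291 CPM per kilobase. Lengths are of merged exons and do not account for which transcripts were made.

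Further cell cycle genes were grouped in 10 lists, and spindle and cytokinesis genes had the lowest median log2 ratio of these lists, at -0.60. Medians were taken with 0.5 CPM added, and single genes are given and ranked without it. Of the 19 measured, 11 lay below 0 with their whole interval and 0 above. Among all tested genes 21.1% were lower and 20.2% higher by that rule, the shares to set beside each count in this paragraph. Kif20b, a cytokinesis kinesin (2.97 against 0.859 CPM), and Ect2, an exchange factor for RhoA at the cleavage furrow (2.68 against 1.02 CPM), were lowest at -1.79 (-2.90 to -0.80) and -1.40 (-2.43 to -0.45). Incenp (-0.31) and Racgap1 (-0.37) were highest, both within counting error. Mitotic kinases, phosphatases and proteolysis genes were lower in 7 and higher in 1 of 20 (median -0.25). There Mastl, the Greatwall kinase, was at -1.10 (-2.16 to -0.11). Melk was at -1.18 on 22 and 9 reads (-2.48 to -0.003). Wee1, which inhibits Cdk1, was higher at 4.92 against 7.03 CPM (0.51, 0.04 to 0.99). Pttg1, which encodes securin, was within counting error at 0.26. Kinetochore and checkpoint genes were lower in 2 and higher in 1 of 20 (median -0.14), both below the shares of all tested genes. Spc25, of the Ndc80 complex, was lowest at 9.05 against 4.53 CPM (-1.0, -1.47 to -0.54), and Dsn1 (0.39) and Hjurp (0.17) were highest. Condensins and chromatin genes of mitosis were lower in 5 and higher in 2 of 13 (median -0.22). Kif4, a chromosome motor, was lowest at -1.0 (28 and 13 reads), with an interval that ends just under 0. Ncapg, a condensin subunit, followed at -0.96 (21 and 10 reads), within counting error, and Ncaph2 (0.19) and Ncapg2 (0.55) were highest. Kif20b, Dlgap5 and Kif15 of the spindle and cytokinesis list, Melk and Ncapg lay under 1 CPM in the entacapone library. They reached a mean of 1 CPM only through the vehicle library. The counts and medians of their lists include them, and Kif20b, Dlgap5 and Melk are among the lower calls.

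The next lists hold genes of replication and growth control. Of 37 origin, polymerase and fork genes, 6 were lower and 2 higher, with a median of -0.13. Both shares are below those of all tested genes, 21.1% lower and 20.2% higher, which apply to each count in this paragraph. Asf1b, a histone chaperone, and Gmnn were lowest at -1.25 (-2.26 to -0.33) and -0.89 (-1.48 to -0.32), and Prim1 (0.49) and Gins3 (1.27, 0.41 to 2.19) highest. Nucleotide synthesis had a median of 0.07, with 1 of 15 lower (Dck, -0.42) and 2 higher (Shmt1, 0.66, and Impdh2, 0.27); its second lowest gene, Tk2, was at -0.12. Of 12 genes of the S phase checkpoint and repair, 5 were lower and 0 higher (median -0.30), with Tipin (-0.07) and Timeless (-0.03) highest. Clspn (-1.27) and Rad51ap1 (-1.14) were lowest. Clspn, at 1.88 against 0.781 CPM (26 and 10 reads), reached a mean of 1 CPM only through the vehicle library. G1 cyclins and kinases were lower in 2 of 4. Ccnd1, cyclin D1, was at 17.2 against 11.5 CPM (-0.59, -0.89 to -0.28) and Ccnd2 at -0.15, with Ccnd3 (0.01) and Cdk4 (0.06) within counting error.

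Regulators of the programme were mixed. In the E2F, RB and DREAM list, 5 of 19 were lower and 2 higher (median -0.07). The lower share is near the 21.1% of all tested genes, and the higher share is below their 20.2%. Foxm1, the activator of G2 and mitosis genes, was lowest at 5.0 CPM (69 reads) against 2.5 CPM (32 reads), a log2 ratio of -1.0 (-1.65 to -0.37). Rbl1, the pocket protein p107, was at 12.4 against 7.42 CPM (-0.74), and E2f6 (0.39) and E2f2 (0.23, -0.30 to 0.76) were highest. Of 6 measured CDK inhibitors, 2 were higher and 2 lower (median 0.16). Cdkn1a, which encodes p21, an inhibitor of S phase kinases, was at 206.8 CPM (2856 reads) against 312.7 CPM (4002 reads), a log2 ratio of 0.60 (0.53 to 0.67), and Cdkn1c was at 0.39. Cdkn2b (-0.55) and Cdkn2c (-0.16), which inhibit the kinases of D cyclins, were lower. Cdkn1a was far more abundant than any member of the set, and it is expressed in many cells that do not divide.

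**Figure D5:**
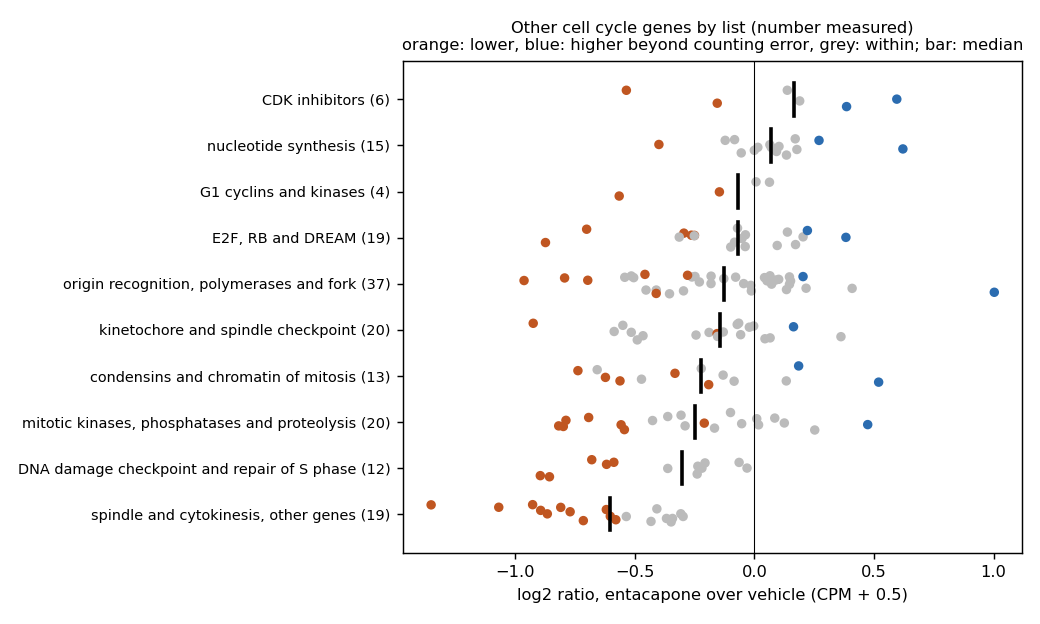
Log2 ratio with 0.5 CPM added (x axis) for measured genes of 10 cell cycle lists (rows, number of genes in brackets); orange points are lower, blue points higher and grey points within counting error, and bars are medians. Spindle and cytokinesis genes have the lowest median (-0.60) and CDK inhibitors the highest (0.16).

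Markers of the cells that could divide were set beside the members. Of 18 macrophage markers, 16 were lower and 0 higher, against 21.1% and 20.2% of all tested genes. Many of the markers hold more reads than the members, so smaller differences are called. The macrophage sum was 2003 against 1021 CPM (log2 -0.97, -1.0 to -0.94). Markers of adipocyte progenitors and fibroblasts were lower in 13 of 14, summing to 8361 against 5280 CPM (log2 -0.66, -0.68 to -0.65). The mitosis sum lay between them at log2 -0.80 (-0.93 to -0.67). Mitosis reads per macrophage marker read were 0.0494 and 0.0555, a ratio of 1.12 (1.02 to 1.23), and per progenitor and fibroblast marker read the ratio was 0.908 (0.828 to 0.994). Col1a1, Col1a2 and Col3a1 made up 78.2% and 78.3% of the progenitor and fibroblast sum. Without these 3 collagens, 10 of 11 markers were lower, their sum had a log2 ratio of -0.67 (-0.70 to -0.64), and the ratio of mitosis reads to them was 0.913 with an interval that holds 1 (0.831 to 1.002). Single markers ran from Pdgfra, of progenitors, at -0.01 to Dpp4 at -1.40. Set against adipocyte markers (12 measured, 5 lower and 7 higher) the ratio was 0.516 (0.471 to 0.565). These ran from Lep at -0.42 to Cfd at 1.61, and even Lipe at 0.03 was called higher. Fabp4 gave 207593 of their 767087 reads in the vehicle library and 229094 of 789714 in the entacapone library. Against endothelial markers, which summed to 980.7 against 978.7 CPM, the ratio was 0.574 (0.523 to 0.631). Of 9 endothelial markers, 3 were lower and 3 higher, from Tek at -0.34 to Flt1 at 0.56. T cell markers (11 measured, 1 higher and 0 lower) summed to 29.5 against 37.0 CPM. B cell markers (9 measured, 1 higher and 1 lower) summed to 886.9 against 623.5 CPM, of which Ighm made up 850.0 and 582.1 CPM. Skin and mammary epithelium, a tissue that renews by division, summed to 32.1 against 102.8 CPM. Erythroid markers (6 measured, 5 higher and 1 lower) summed to 301.5 against 476.3 CPM. None of these markers was at 0 in a library except Slc4a1 of the erythroid and Tnnc2 of the muscle list. Tnnc2 had 0 reads in both libraries, though the muscle troponins Tnni2 (864 and 1292 reads) and Tnnt3 (1375 and 1965 reads) were well covered. The reason for its 0 was not tested. What share of the members' reads came from each cell type was not tested.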

How the data were processed

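Poly(A) RNA from white fat was sequenced in 2 libraries, 1 per group. Files deposited by the authors hold raw counts of reads for each Ensembl identifier; the submitters' processing notes name TopHat2 2.1.1, HTSeq 0.6.0 and mm10. Annotation, counting mode and the handling of multi-mapping reads are not stated, and the TruSeq v2 kit of the labels' protocols does not mark strand. Of 37315 identifiers, 35449 matched GENCODE M21 (GRCm38, the same assembly as mm10), which gave symbols, positions and exon lengths. CPM used effective library sizes from edgeR 4.0.16 (TMM factors 1.01 and 0.986, R 4.3.3). A ratio is entacapone over vehicle, with the exact 95% interval of the entacapone share of reads (Clopper-Pearson), and ratios of reads carry the exact conditional interval of the odds ratio (scipy 1.17.1). Reads carry no molecular identifiers. Members and lists were chosen with earlier results of these data known. All members are given, with the 2 highest and 2 lowest measured genes of each other cell cycle list by log2 ratio without added CPM, except 1 gene that is not reported here; other genes named were chosen after their values were seen. The alternatives used size factors of DESeq2 1.42.0, total counts, upper-quartile scaling, other pseudocounts, limits and groupings.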

Additional observations from a re-analysis of the deposited data

How the results depend on the processing

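Of 84 values recomputed under alternatives, 77 stayed within their limit, 7 moved and 0 reversed. The limit was the counting interval for ratios and 1.5 times for counts of members, which could not be labelled reversed. Medians have no interval of their own and were held to the distance from the midpoint to either end of the log2 interval of a summed ratio. That was the sum of the same group, and for all members the replication sum. Under DESeq2 size factors, total counts, upper-quartile scaling and total counts without the liver, muscle, epithelium, erythroid and mitochondrial genes, the members lower beyond counting error numbered 17 to 19, and those at least 2-fold lower 7. The ratio of mitosis to replication reads ranged from 0.588 (without Aurka) to 0.653 (without the 10 members whose exons overlap a gene on the other strand, an alternative chosen after seeing the data). With Mcm2 to Mcm7, Rrm2 and Tyms alone as replication genes it was 0.615. A minimum of 3 CPM left 12 members lower and 3 at least 2-fold lower, with a median over all members of -0.34. With a limit of 1.5-fold, 17 members were lower and 1 (Aurka) higher. A pseudocount of 2 CPM gave medians of -0.53 for mitosis and -0.29 for all members. It shrinks low genes by construction. Without members that overlap another strand's exons, 1 member was higher. Leaving the collagens out of the progenitor and fibroblast markers, also chosen after seeing the data, moved the ratio of mitosis reads to them from 0.908 to 0.913, and its interval then holds 1. No paired analysis was possible because each group holds 1 library. Depth limits single genes most: with 21 and 5 reads the interval of Bub1 spans -3.72 to -0.51 on the log2 scale.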

Other observations

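The subunits of 2 further complexes of the cycle were chosen after their values were seen. Condensin I and II, the rings that compact mitotic chromosomes, differ in 3 subunits each. Of those of condensin I, which acts after the nuclear envelope breaks down, only Ncapd2 was lower beyond counting error. It was at 19.4 against 15.3 CPM (log2 -0.34, -0.61 to -0.07). Ncaph, at 5.72 against 3.98 CPM (-0.52, -1.06 to 0.005), and Ncapg, at 1.52 against 0.781 CPM (-0.96, -2.21 to 0.19), were within it. Those of condensin II, which is nuclear throughout the cycle, were within counting error or higher. Ncapd3 was at 21.4 against 19.5 CPM (-0.13), Ncapg2 at 6.44 against 9.45 CPM (0.55, 0.15 to 0.96) and Ncaph2 at 94.8 against 107.9 CPM (0.19, 0.08 to 0.30). Condensin I reads per condensin II read were 1.48 times lower in the entacapone library (1.24 to 1.77, counting error only). In the vehicle library, Ncapd2 gave 268 of the 368 condensin I reads and Ncaph2 1310 of the 1695 condensin II reads. The ratio therefore rests mostly on that pair. In the GINS complex, Gins3 was at 1.23 against 2.97 CPM (17 and 38 reads) and Gins4 at 31.3 against 36.2 CPM (0.21, 0.01 to 0.40), both higher, while Gins1, at 2.75 against 1.88 CPM (-0.55, -1.35 to 0.22), and Gins2 were within counting error.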
